A study of Populus trichocarpa with 12 samples.

Results

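The genes described here are 5 cellulose synthase loci of the secondary cell wall and 2 sucrose synthase loci of black cottonwood (Populus trichocarpa). They were taken by locus identifier, 7 of the 41335 loci in the deposited count table, and all 7 were among the 26298 loci tested. The cellulose synthases were CesA4 (Potri.002G257900), CesA7-A (Potri.006G181900), CesA7-B (Potri.018G103900), CesA8-A (Potri.011G069600) and CesA8-B (Potri.004G059600). The sucrose synthases were SUS1 (Potri.018G063500) and SUS2 (Potri.006G136700). These names were assigned to the identifiers in advance, since the count table holds identifiers only. RNA came from the developing xylem (young, wall-forming wood cells) of 9 trees overexpressing miR397a and 3 wild-type trees, all of the Nisqually-1 background. The transgene was driven by the cauliflower mosaic virus 35S promoter, which is active in most plant cell types and is not limited to xylem. Each transgenic line (1, 3, 5, 6, 9, 10, 17, 26 and 30) is represented by 1 tree, so differences between lines and between trees cannot be told apart. The study asked how miR397a, a microRNA known to target laccase mRNAs, affects wood formation and lignin.

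Cellulose of the secondary wall is spun at the plasma membrane by a complex of cellulose synthase proteins of the CesA4, CesA7 and CesA8 classes. In Arabidopsis, loss of any of these classes gives collapsed, irregular xylem vessels, so the classes do not replace each other. Sucrose synthase splits sucrose in the presence of UDP and so can supply UDP-glucose, the substrate of cellulose synthase. In poplar, CesA7, CesA8 and these sucrose synthases each exist as a pair of close paralogs that stem from a genome duplication.

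Counts summed over loci ran from 8015226 to 34112839 in the lines and from 12580140 to 23611857 in wild type. The 7 loci together took 1.35 ± 0.135% of these reads in the lines (SD, n = 9) and 1.19 ± 0.175% in wild type (SD, n = 3). All 5 secondary-wall cellulose synthases, which are themselves defining genes of developing xylem, were read in every tree, and the lowest count was 4733 reads, for CesA8-A in line 5. The exact 95% Poisson interval of that count was 4599 to 4870, so counting error was small beside the differences between trees. The miR397a precursor was not identified among the loci, so its overexpression was not checked here. A stretch of 9 loci on chromosome 5 took 1.14% to 18.7% of reads in the lines and 2.80% to 18.9% in wild type, and scaling factors were used to offset it. Levels are given as CPM, counts scaled to library size, after scaling by the trimmed mean of M-values (TMM). They are not corrected for transcript length, so a level is compared between trees and not between genes.

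Mean levels of all 5 secondary-wall cellulose synthases in the lines lay above those in wild type, and none of the 5 differences passed the test. CesA4, the single member of its class here, had a lowest level of 1884 CPM, a median of 2211 CPM and a highest level of 2707 CPM in the lines, against 1839, 1858 and 1983 CPM in the 3 wild-type trees. Line 30 was the highest and line 6 the lowest, and 6 of the 9 lines exceeded every wild-type tree. CesA7-A had a median of 1443 CPM in the lines, between 1201 CPM (line 9) and 1673 CPM (line 30), against 1146, 1109 and 1278 CPM in wild-type trees 1, 2 and 3. Its paralog CesA7-B had a median of 899 CPM in the lines, between 783.8 CPM (line 9) and 1130 CPM (line 30), against 769, 759 and 816 CPM in wild-type trees 1, 2 and 3. For both copies of CesA7 most lines lay above wild type (6 of 9 for CesA7-A and 7 of 9 for CesA7-B), and the groups overlapped. CesA4 averaged 2187 ± 267 CPM in the lines (SD, n = 9) and 1894 ± 78.1 CPM in wild type (SD, n = 3), and CesA7-A averaged 1401 ± 155 CPM in the lines (SD, n = 9) and 1178 ± 89.1 CPM in wild type (SD, n = 3).

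The CesA8 class varied less. CesA8-A had a median of 541 CPM in the lines, between 468 CPM (line 9) and 624 CPM (line 26), against 491, 469 and 509.9 CPM in wild-type trees 1, 2 and 3. CesA8-B had a median of 1684 CPM in the lines, between 1529 CPM (line 9) and 1771 CPM (line 30), against 1550, 1468 and 1655 CPM in wild-type trees 1, 2 and 3. The groups overlapped for both copies. The 5 loci summed averaged 6705 ± 608 CPM in the lines (SD, n = 9) and 5900.4 ± 304 CPM in wild type (SD, n = 3), and 7 of the 9 lines lay above every wild-type tree. Over all 12 trees the coefficient of variation was 5.74% for CesA8-B, the lowest of the 7 loci, and 9.38% for CesA8-A, while CesA4, CesA7-A and CesA7-B had 12.6%, 12.7% and 12.1%. The median over the 500 most abundant loci was 12.9%.

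**Figure D1:**
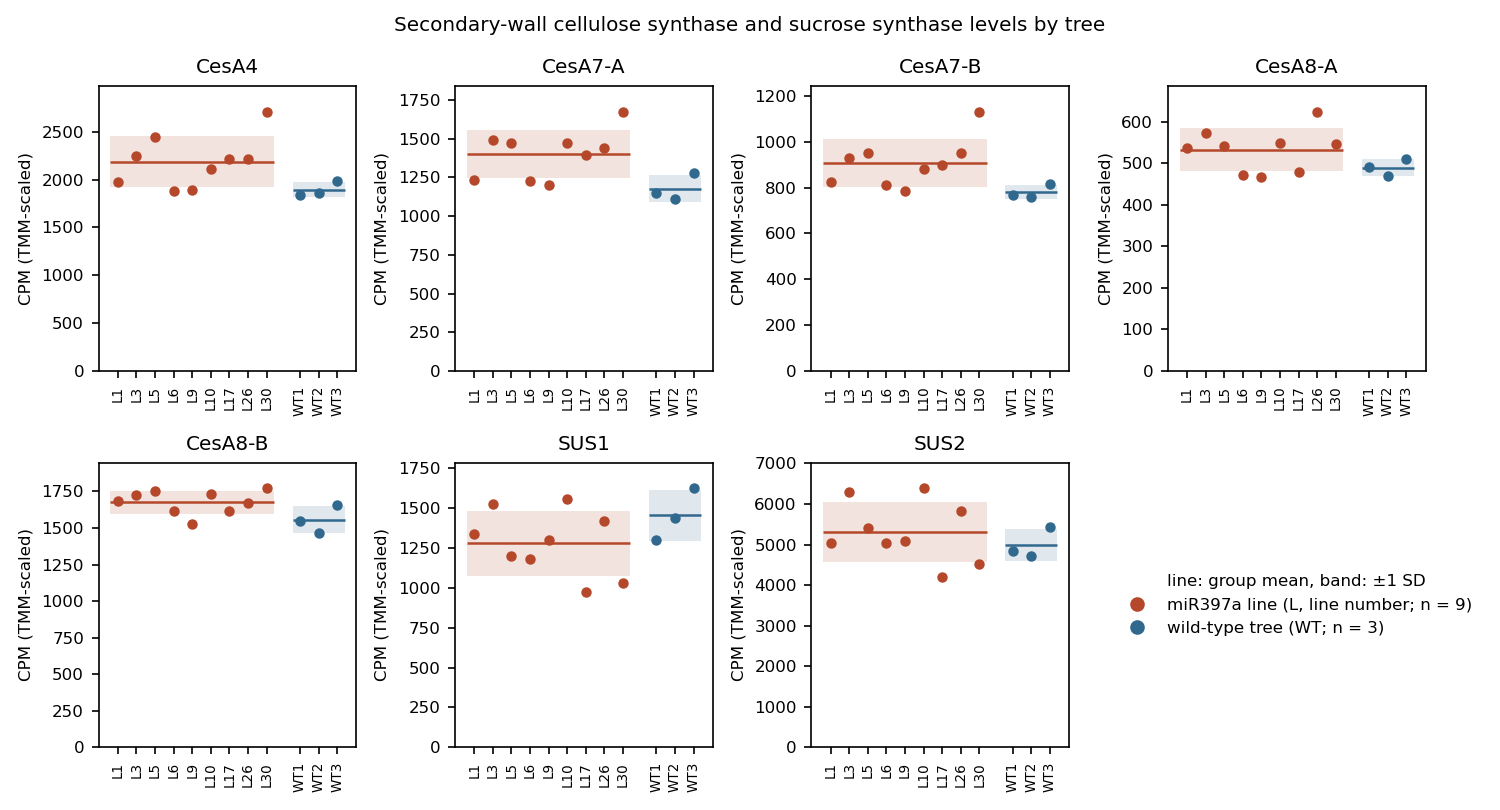
Level of each locus in every tree, in TMM-scaled CPM from 0, with the 9 miR397a lines (L and line number) left of the 3 wild-type trees (WT). Horizontal lines are group means and bands are 1 SD to either side; the groups overlap for all 7 loci, and line 30 is the highest tree for CesA4, CesA7-A, CesA7-B and CesA8-B.

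The fitted log2 fold changes of the lines over wild type were 0.21 ± 0.11 for CesA4, 0.25 ± 0.11 for CesA7-A and 0.21 ± 0.11 for CesA7-B (SE; edgeR adjusted p = 0.518, 0.434 and 0.481). Those of CesA8-A and CesA8-B were 0.12 ± 0.10 and 0.11 ± 0.08 (SE; edgeR adjusted p = 0.657 and 0.640). The 95% intervals run from 0.976-fold to 1.37-fold for CesA4, from 1.01-fold to 1.40-fold for CesA7-A and from 0.989-fold to 1.36-fold for CesA7-B. They run from 0.941-fold to 1.26-fold for CesA8-A and from 0.953-fold to 1.22-fold for CesA8-B. The intervals of the 5 loci thus span 0.941-fold to 1.40-fold. They cover the spread between these trees only, and a change in cell make-up or in RNA per cell cannot be told apart in bulk tissue.

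Of the 7 loci, 0 were called at an edgeR adjusted p below 0.05, where 0.0913% of all tested loci were called. At an unadjusted edgeR p below 0.05 the count was 1 of 7, beside 11.0% of all tested loci. The locus was CesA7-A. DESeq2 and limma-voom, with and without sample quality weights, also called 0 of the 7. All 5 cellulose synthases had a positive fold change, with a median of 0.21 on the log2 scale. Over all tested loci the median log2 fold change was -0.00016 and 49.96% were positive, and over the 500 most abundant loci it was 0.066 and 68.2% were positive. No locus of the 7 had groups without overlap, which 2.95% of all tested loci had.

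**Figure D2:**
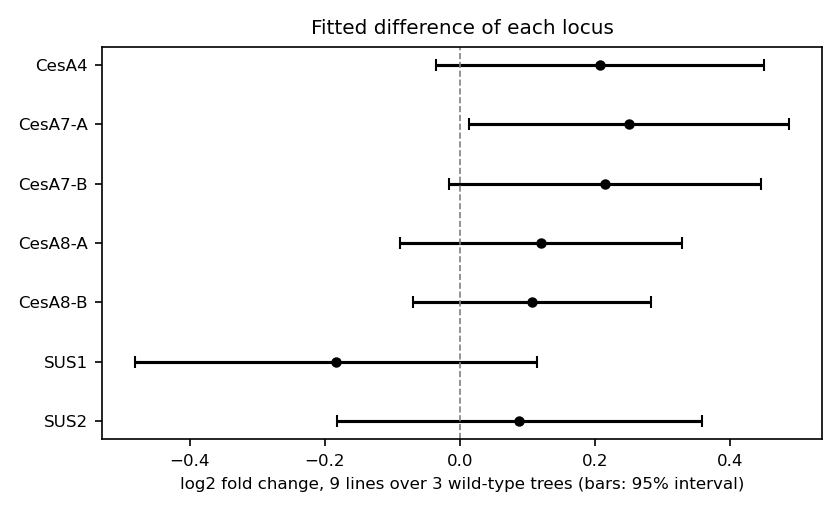
Fitted log2 fold change of each locus, 9 miR397a lines over 3 wild-type trees, with 95% intervals from the edgeR quasi-likelihood fit; the dashed line marks no difference. The 5 cellulose synthases lie between 0.11 and 0.25, SUS2 at 0.09 and SUS1 at -0.18, and only the interval of CesA7-A leaves out 0.

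The sucrose synthases went in opposite directions in the fit, and neither passed the test. SUS1 had a median of 1298 CPM in the lines, between 976 CPM (line 17) and 1554 CPM (line 10), against 1300.03, 1435 and 1622 CPM in wild-type trees 1, 2 and 3. No line exceeded every wild-type tree for SUS1, and 5 lines lay below all 3. SUS2 had a median of 5082 CPM in the lines, between 4200.2 CPM (line 17) and 6383 CPM (line 10), against 4830, 4705 and 5441 CPM in wild-type trees 1, 2 and 3. For SUS2, 3 lines lay above and 2 below every wild-type tree. SUS1 averaged 1279 ± 203 CPM in the lines (SD, n = 9) and 1452 ± 161 CPM in wild type (SD, n = 3). SUS2 averaged 5307 ± 745 CPM in the lines (SD, n = 9) and 4992 ± 394 CPM in wild type (SD, n = 3). The log2 fold changes were -0.18 ± 0.14 for SUS1 and 0.09 ± 0.13 for SUS2 (SE; edgeR adjusted p = 0.634 and 0.821), with 95% intervals of 0.717-fold to 1.08-fold and 0.881-fold to 1.28-fold. SUS1 varied most of the 7 loci over the 12 trees, with a coefficient of variation of 15.3%, and SUS2 had 12.9%.

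The balance between the sucrose synthase paralogs did differ between the groups: SUS1 made up a smaller part of the sucrose synthase reads in every line than in any wild-type tree. The ratio of SUS1 to SUS2 reads was 0.264 in line 1, 0.242 in line 3, 0.221 in line 5, 0.235 in line 6, 0.255 in line 9, 0.243 in line 10, 0.232 in line 17, 0.244 in line 26 and 0.228 in line 30. It was 0.269, 0.305 and 0.298 in wild-type trees 1, 2 and 3. The groups did not overlap, although line 1 and wild-type tree 1 lay close together. Of all tested loci, 2.95% had levels without overlap, and how often ratios of other locus pairs separate the groups was not computed. A ratio taken within a library needs no scaling factor, so this comparison does not rest on the normalization. The mean ratio was 0.241 ± 0.0134 in the lines (SD, n = 9) and 0.291 ± 0.0190 in wild type (SD, n = 3). The difference of the mean log2 ratios was -0.27, a 0.828-fold ratio in the lines (exact permutation test, two-sided, p = 0.00455, which no split among the 220 can go below; 0.0136 after Benjamini-Hochberg adjustment over the 3 paralog ratios tested).

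The groups did not overlap, so the SUS1 to SUS2 difference could only keep its sign in each set of trees that was tried. It ranged from -0.33 to -0.24 on the log2 scale when 1 tree was left out. Without any 1 of the wild-type trees the exact permutation p was 0.0182, the floor with 55 splits, which is 0.0545 after adjustment over the 3 ratios. Where at least 10% of reads fell on the chromosome 5 stretch, the ratio was 0.242 to 0.244 in 3 lines and 0.269 to 0.298 in 2 wild-type trees. Where less than 10% did, it was 0.221 to 0.264 in 6 lines and 0.305 in the remaining wild-type tree. SUS1 and SUS2 are close paralogs, and the sources used here do not say how reads aligning to both were counted, so the ratio is one of counted reads and not of transcript molecules.

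The paralog ratios of the cellulose synthases did not differ beyond the spread between trees. The ratio of CesA7-A to CesA7-B reads ran from 1.48 in line 30 to 1.67 in line 10 with a median of 1.53, against 1.49, 1.46 and 1.57 in wild-type trees 1, 2 and 3. The difference of the mean log2 ratios was 0.038 (exact permutation test, two-sided, p = 0.318; adjusted over the 3 ratios, 0.477). The ratio of CesA8-A to CesA8-B reads ran from 0.292 in line 6 to 0.374 in line 26 with a median of 0.309, against 0.317, 0.320 and 0.308 in wild-type trees 1, 2 and 3. Its difference was 0.0083 (exact permutation test, two-sided, p = 0.895; adjusted over the 3 ratios, 0.895). The sign of the CesA8 difference turned without line 3, line 26 or wild-type tree 3. These paralogs too can share reads.

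**Figure D3:**
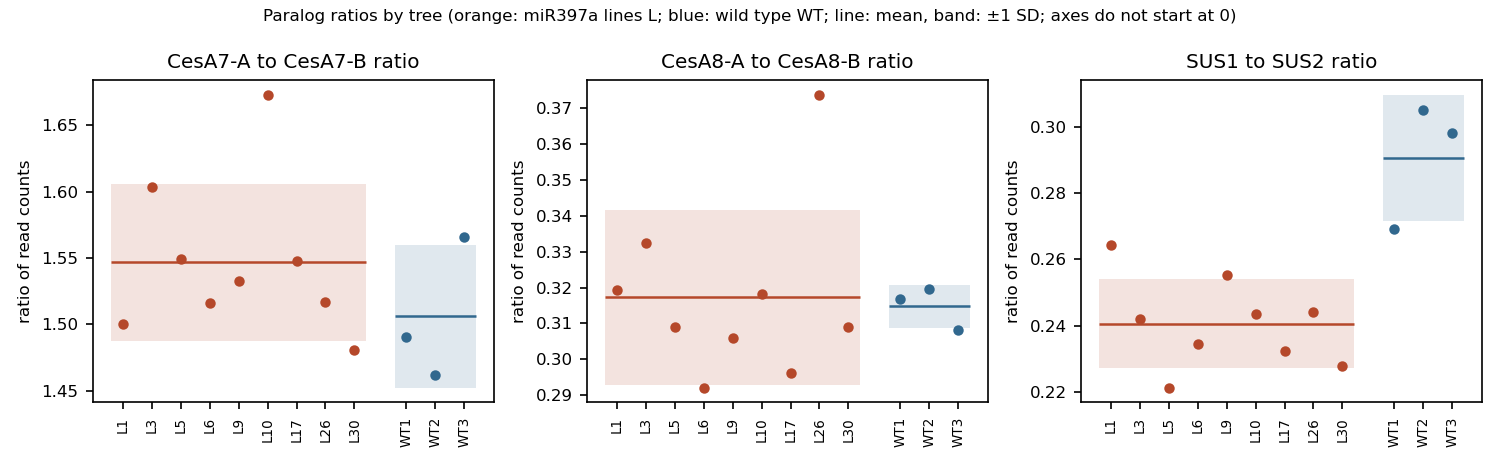
Ratio of read counts between paralogs in every tree, for CesA7, CesA8 and sucrose synthase, with the 9 miR397a lines (L) left of the 3 wild-type trees (WT); horizontal lines are means, bands are 1 SD to either side, and the axes do not start at 0. The SUS1 to SUS2 ratio is at most 0.264 in the lines and at least 0.269 in wild type, while the cellulose synthase ratios overlap.

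The make-up of the cellulose synthase reads overlapped between the groups for each of the 5 loci. CesA4 held 32.5 ± 1.22% of the reads of the 5 loci in the lines (SD, n = 9) and 32.1 ± 0.612% in wild type (SD, n = 3). CesA7-A held 20.9 ± 0.636% in the lines and 19.9 ± 0.471% in wild type, and CesA7-B 13.5 ± 0.414% in the lines and 13.3 ± 0.160% in wild type. CesA8-A held 7.96 ± 0.641% in the lines and 8.31 ± 0.152% in wild type, and CesA8-B 25.1 ± 1.40% in the lines and 26.4 ± 0.421% in wild type. These shares are of reads, uncorrected for length, and describe the balance of the subunits between trees rather than their stoichiometry. The reads of both CesA8 copies relative to CesA4 ran from 0.856 in line 30 to 1.12 in line 1, against 1.11, 1.04 and 1.09 in wild-type trees 1, 2 and 3. Lines 5, 17 and 30 were the 3 lowest, at 0.939, 0.947 and 0.856. The reads of both CesA7 copies relative to CesA4 ran from 0.994 in line 5 to 1.12 in line 10, against 1.04, 1.01 and 1.06 in wild-type trees 1, 2 and 3.

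Across the 12 trees the cellulose synthases varied together. Of the 21 pairs among the 7 loci, 10 passed a permutation test of Pearson's r on log2 CPM at an adjusted p below 0.05. These were 9 of the 10 pairs of cellulose synthases and the pair of sucrose synthases. The share of pairs that pass among other loci was not computed, so the counts describe these loci only. The tightest pair was CesA4 and CesA7-B, subunits of different classes, with r = 0.98 (permutation p = 1e-05, the smallest that 100000 resamples can give; adjusted over 21 pairs, 0.000105). Spearman's rho for CesA4 and CesA7-B was 0.97 (permutation p = 1e-05, adjusted 7e-05), and r was 0.97 without lines 30 and 5, the trees farthest from the median of CesA4. CesA7-A followed CesA7-B with r = 0.96 and rho = 0.94 (permutation p = 1e-05 for both; adjusted 0.000105 and 7e-05), and r was 0.95 without line 30 and wild-type tree 2. CesA8-A and CesA8-B had r = 0.73 and rho = 0.80 (permutation p = 0.00682 and 0.00296, adjusted 0.0179 and 0.00827), and r was 0.85 without lines 26 and 9. Reads counted for both copies can raise r between paralogs of CesA7, of CesA8 and of sucrose synthase, and this was not tested. The pair that did not pass was CesA4 and CesA8-A, with r = 0.59 and rho = 0.71 (permutation p = 0.0424 and 0.0119; adjusted 0.0741 and 0.0227), and r was 0.71 without lines 30 and 5.

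The sucrose synthases followed each other, and with TMM-scaled levels 0 of the 10 pairs of a cellulose synthase with a sucrose synthase passed, while 1 passed under DESeq2 size factors and 2 under library totals. SUS1 and SUS2 had r = 0.77 and rho = 0.72 over the 12 trees (permutation p = 0.004 and 0.0105, adjusted 0.012 and 0.022). Over these trees r was lower, at 0.55, without lines 17 and 30. Within the 9 lines SUS1 and SUS2 had r = 0.94 and rho = 0.93 (exact permutation p = 0.000344 and 0.00075; adjusted 0.00318 and 0.00787), and r was 0.86 without lines 17 and 30. The r between a cellulose synthase and a sucrose synthase ran from -0.41, for CesA4 and SUS1, to 0.63, for CesA8-A and SUS2 (TMM; permutation p = 0.0283, adjusted 0.054). CesA8-A and SUS2 passed with DESeq2 size factors (r = 0.66, permutation p = 0.0207, adjusted 0.0394) and with library totals (r = 0.64, permutation p = 0.0216, adjusted 0.0378), and CesA8-B and SUS2 passed with library totals (r = 0.66, permutation p = 0.0152, adjusted 0.0291). Within the 9 lines 5 of the 21 pairs passed, 4 of them between cellulose synthases, and r between cellulose synthases ran from 0.48 to 0.97. No pair with CesA8-A passed within the lines, where CesA8-A and CesA8-B had r = 0.68 (exact permutation p = 0.043, adjusted 0.113). Values of 1 tree share a library and a scaling factor, and with library totals in place of TMM factors 12 pairs passed, all 10 between cellulose synthases among them. The median r between a cellulose synthase and a sucrose synthase was 0.38 with totals and 0.051 with TMM factors. With totals, SUS1 and SUS2 no longer passed (r = 0.60, permutation p = 0.0367, adjusted 0.0594).

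**Figure D4:**
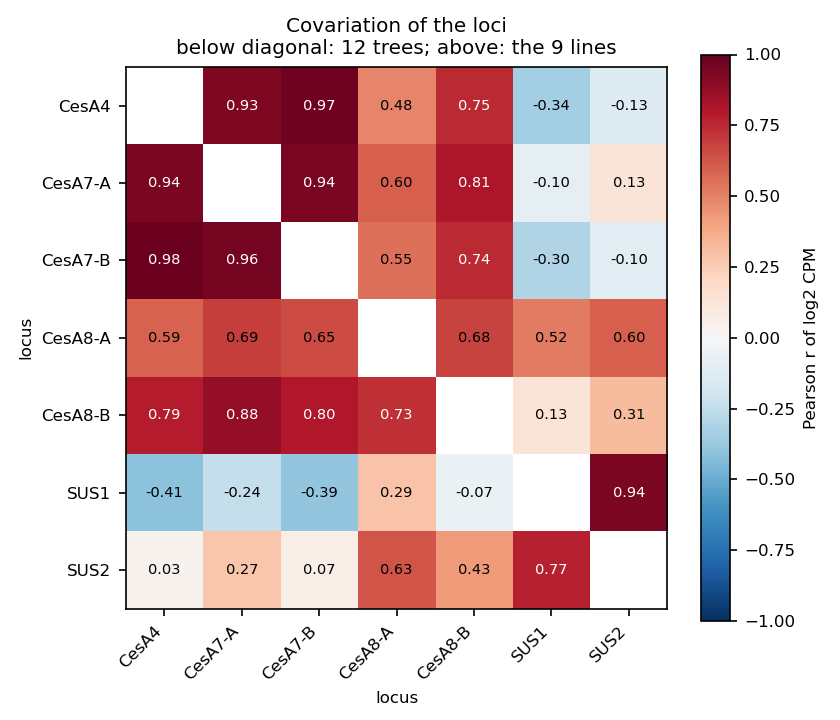
Pearson correlation of log2 CPM between the 7 loci, over the 12 trees below the diagonal and over the 9 miR397a lines above it. The cellulose synthases form a block of positive values from 0.59 to 0.98 over the 12 trees, and the sucrose synthases correlate with each other more than with CesA4 or CesA7.

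Lines differed in how many sucrose synthase reads they had per cellulose synthase read. This ratio was lowest in line 30 (0.708) and line 17 (0.785) and highest in line 10 (1.18), and its median in the lines was 1.03, against 1.06, 1.08 and 1.13 in wild-type trees 1, 2 and 3. Of the lines, 6 lay below every wild-type tree and 1 above. After the values were seen, the log2 ratio was set beside the log2 share of reads on the chromosome 5 stretch, along which libraries of both groups differ. Across the 9 lines it was higher where that share was higher (r = 0.89, exact permutation p = 0.000581; rho = 0.87, exact permutation p = 0.00451; adjusted over 11 relations with the share, 0.0032 and 0.0223), and r was 0.93 without lines 26 and 10. Over the 12 trees r was 0.81 and rho 0.69 (permutation p = 0.0005 and 0.0156; adjusted 0.0055 and 0.11), and r was 0.62 without lines 17 and 30. Wild-type tree 2 had a share of 2.80% and a ratio of 1.08, close to the other wild-type trees.

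How the levels of the sucrose synthases moved with that share depended on the scaling. Across the 9 lines TMM-scaled SUS1 had r = 0.95 and rho = 0.92 with the share (exact permutation p = 0.000378 and 0.00131; adjusted over 11 relations, 0.0032 and 0.0144), and r was 0.95 without lines 26 and 10. SUS2 had r = 0.90 and rho = 0.85 (exact permutation p = 0.00136 and 0.00607; adjusted 0.00499 and 0.0223), and r was 0.88 without lines 26 and 10. Over the 12 trees the values were lower: SUS1 had r = 0.82 and rho = 0.67 (permutation p = 0.00136 and 0.0208; adjusted 0.00748 and 0.11), and SUS2 had r = 0.74 and rho = 0.64 (permutation p = 0.00604 and 0.0301; adjusted 0.0221 and 0.11). Without lines 17 and 30 these r were 0.60 for SUS1 and 0.54 for SUS2. With library totals in place of TMM factors, neither sucrose synthase passed. In the 9 lines r was then 0.12 for SUS1 and -0.21 for SUS2, and over the 12 trees -0.094 and -0.45, or -0.58 and -0.72 without lines 17 and 30. The library total includes the reads on the stretch, so with totals a higher share by itself lowers every other level. A negative r with totals is therefore partly built in. All 5 cellulose synthases had r from -0.93 to -0.85 with totals over the 12 trees. None of the 5 cellulose synthases passed with TMM-scaled levels, where r ran from -0.39 to 0.35 over the 12 trees. The sources used here do not name the chromosome 5 loci, and the part of the share in these levels was not tested. With the share as a covariate, the log2 fold change of SUS1 was -0.10 and that of SUS2 was 0.18, and neither passed (edgeR adjusted p = 0.569 and 0.213).

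**Figure D5:**
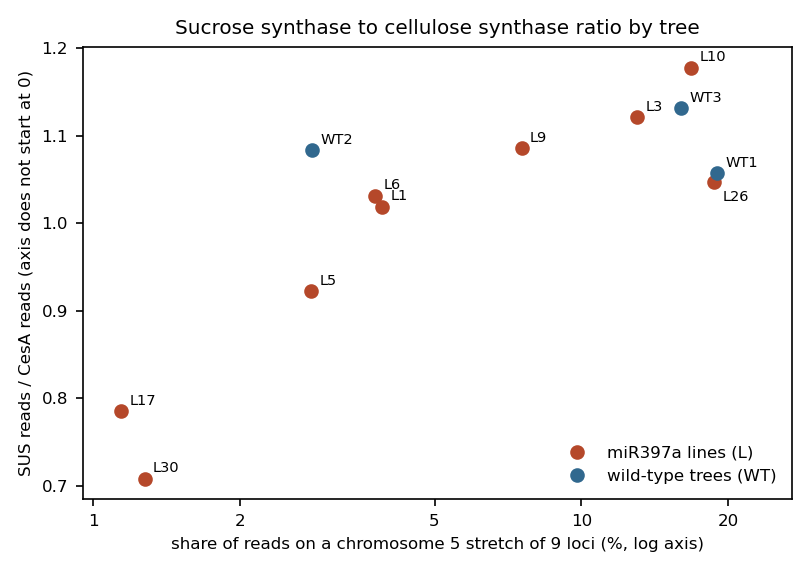
Sucrose synthase reads per cellulose synthase read in each tree against the share of its reads on a chromosome 5 stretch of 9 loci (percent, log axis), for the miR397a lines (L) and the wild-type trees (WT); the vertical axis does not start at 0. Lines 17 and 30 lie lowest at 0.785 and 0.708, with shares of 1.14% and 1.27%, and wild-type tree 2 lies at 1.08 with a share of 2.80%.

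The loci whose pattern over the 12 trees was most like that of the cellulose synthases were ranked by their mean Pearson r with the 5 CesA loci, among 13098 other loci of at least 10 CPM on average. The first 5 were Potri.001G097200 (mean r = 0.87), Potri.005G003300 (0.87), Potri.004G172000 (0.87), Potri.002G101800 (0.86) and Potri.013G081400 (0.85), on chromosomes 1, 5, 4, 2 and 13 by the number in the identifier. Within the 9 lines their mean r was 0.87, 0.84, 0.84, 0.82 and 0.81 in the same order. The most abundant of them by reads, Potri.005G003300, stood at 400 ± 38.8 CPM in the lines (SD, n = 9) and 353 ± 17.7 CPM in wild type (SD, n = 3). Like the cellulose synthases, all 5 had a positive fold change that did not pass, from 0.18 to 0.31 on the log2 scale (edgeR adjusted p from 0.355 to 0.556). They were picked as the top of a ranking over these same 12 trees. These r, and the sign of the fold changes shared with the cellulose synthases, are therefore a description.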

How the data were processed

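Total RNA was extracted by the CTAB method and made into Illumina TruSeq libraries, per the labels' protocols. The submitters' processing notes name bedtools 2.14.2, Bowtie, TopHat and TopHat2 2.0.3 without saying what each did. The genome build, and how multiply aligned reads were counted, was not given in the sources used here. Raw read counts were deposited by the authors in 1 table of 73013 transcript models, with 1 column per tree. Reads shared by models of a locus are counted in each, so the model with the most reads was kept for each of 41335 loci. No libraries were identical.

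The comparison of lines with wild type used edgeR 4.0.16 (R 4.3.3): filterByExpr (minimum count 10), TMM, robust quasi-likelihood fits over all 12 libraries, Benjamini-Hochberg adjustment over all 26298 tested loci, threshold 0.05. The SE is the log2 fold change divided by the square root of F. Correlations used log2 CPM with a prior count of 2, and 100000 permutations (all orders for the 9 lines). The chromosome 5 share, the library size and the ratios of read counts also entered the correlations as log2 values. Paralog ratios were tested over all splits of the trees. The test was checked on simulated data. DESeq2 1.42.0, limma 3.58.1, other scalings, filters and models, a covariate and leaving out each tree were alternatives.

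The members and lists were chosen with earlier results of these data known. The named loci are the 7 members and the 5 loci most like the CesA members. Lists of related genes and of cell type markers had been set up by gene description; the reference table used here (assembly P.trichocarpa_v4.1) gives none for these identifiers, so those lists were not run.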

Additional observations from a re-analysis of the deposited data

Results flagged for a closer look

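A single line stood apart from the other 8 in 2 of the 25 quantities examined, by a gap to its nearest neighbour that took more than the Dixon 95% limit allows of the range of the 9 lines. Chance alone gives such a gap in about 1 of 20 groups. CesA7-B was 1130 CPM in line 30, and the next highest line had 952 CPM. The CesA8-A to CesA8-B ratio was 0.374 in line 26, the library with the most reads, and 0.332 in the next highest line.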

How the results depend on the processing

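None of the 7 loci was called under any of the 22 alternatives, and each kept its sign: the log2 fold change ran from 0.16 to 0.29 for CesA4, 0.21 to 0.33 for CesA7-A, 0.17 to 0.30 for CesA7-B, 0.089 to 0.19 for CesA8-A, 0.066 to 0.19 for CesA8-B, -0.26 to -0.096 for SUS1 and 0.047 to 0.18 for SUS2. The smallest adjusted p was 0.166, for CesA7-A with limma-voom quality weights. The count of called loci in the whole table was 24 with edgeR, 129 with DESeq2, 119 with quality weights, 46 with the chromosome 5 share as covariate, and 16 to 65 when 1 tree was left out (65 without line 1); the cause was not tested. Leaving out 1 tree, the log2 difference of the SUS1 to SUS2 ratio ran from -0.33 to -0.24. As the groups do not overlap, each p was the smallest that the number of splits allows. That floor passes the adjusted threshold with the 165 splits left without any 1 line. With the 55 splits left without any 1 wild-type tree it cannot pass, so neither outcome adds support. The log2 difference of that ratio was -0.27 with the second transcript model of each SUS locus. It was -0.22 in trees with at least 10% of reads on the chromosome 5 stretch and -0.35 in the others. These 3 settings, and library totals in the 9 lines for the chromosome 5 share, were added after the data were seen. Leaving out 1 tree, the CesA8 ratio difference ran from -0.022 to 0.023 (-0.022, -0.00053 and -0.0070 when line 26, line 3 or wild-type tree 3 was dropped) and that of CesA7 from 0.017 to 0.066. The count of correlated pairs was 10 over 12 trees, 11 with DESeq2 size factors (1 of a cellulose synthase with a sucrose synthase), 12 with library totals (2 such pairs) and 5 in the 9 lines alone, with fewer trees. The r of CesA4 and SUS1 was -0.41 and turned to 0.033 with library totals; that of CesA4 and SUS2 was 0.034 and turned to -0.13 in the 9 lines. No paired analysis was possible because a number marks a transgenic line in one group and an unrelated tree in the other. The pathway list alternatives were not run for want of gene descriptions. The lowest count of the 7 loci in any tree was 4733 reads.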

Other observations

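CesA4, CesA7-B and CesA8-A had 1 transcript model in the table, and the other 4 loci had 2. The models of CesA7-A differed by 3 reads in 287012 and those of CesA8-B held 351051 and 351032 reads over the 12 libraries. For SUS1 the models held 284737 and 282126 reads, and for SUS2 1119623 and 1114232. The CesA8-A to CesA8-B ratio had r = 0.65 with log2 library size over the 12 trees (permutation p = 0.0255; rho = 0.66, permutation p = 0.024; adjusted over 11 relations with library size, 0.281 and 0.264), and r was 0.46 without lines 26 and 5.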
